A study of Cavia porcellus with 11 samples.

Results

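The genes described here are 10 members of the NF-kB and cytokine feedback circuit, chosen by gene symbol: Nfkbia, Tnfaip3, Zfp36, Socs3, Stat3, Il1r1, Il6, Ccl2, Icam1 and Ptgs2. All 10 were found among the 21481 genes of the deposited table. They were measured by RNA-seq in cochleae of guinea pigs (Cavia porcellus) from 3 groups. The control group held 4 libraries from animals without treatment. The cisplatin group held 4 libraries after cisplatin, a platinum drug used against tumours whose side effects include hearing loss. The third group held 3 libraries after cisplatin plus STB, and the title of the series names Schisantherin B, a lignan of Schisandra. STB without cisplatin was not among the groups. The labels state no dose, route, time after treatment, strain, age or sex, and leave unsaid whether each library is a different animal. The p-values therefore rest on library-to-library spread, part of which may be technical.

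NF-kB is a family of transcription factors that inhibitor proteins hold in the cytoplasm until a signal such as TNF or interleukin-1 leads to their destruction. Among the genes that NF-kB then switches on are its own inhibitors, so the response brakes itself, and the same holds for STAT3, which receptors of the interleukin-6 family activate and which induces the inhibitor of those receptors. In the cochlea these circuits are known from noise and drug injury, where fibrocytes, supporting cells and resident macrophages can make chemokines and adhesion molecules.

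The libraries held 14338894 to 18508296 counts each. Levels are given in CPM, a count scaled by the size of its library with TMM factors, which assume that most genes are alike between libraries. The tissue label fits several of its markers, with the inner ear protein gene Coch at 27150 to 51390 CPM, the connexin gene Gjb2 at 1407 to 2405 CPM and the hair cell synapse gene Otof at 159 to 415 CPM. Other markers were low or absent. The hair cell regulator Atoh1 was at 0 in all 11 libraries and the hair cell marker Strc in 7. The cochlear markers Tecta and Tectb reached at most 4.04 and 4.68 CPM. Because these are bulk samples, fewer cells of a type and less RNA per cell cannot be told apart. Every fold change below is a fitted log2 value with its standard error (SE) from edgeR's quasi-likelihood test over 15384 genes, and adjusted p-values are Benjamini-Hochberg values over all of these genes, called under 0.05.

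A single library stood apart for these genes, cisplatin replicate 2. It held the highest level of 8 of the 9 members with enough counts to be tested, and of 18.8% of all tested genes. In 4 of these 9 (Zfp36, Socs3, Ccl2 and Icam1) its level was at least 2-fold above that of every other library, which held for 181 of 15384 tested genes (1.18%), and for 3 to 30 genes in each of the other 10 libraries. Its depth, 16246976 counts, lay inside the range of the others. The median deviation of the members from the control mean was 1.43 on the log2 CPM scale in this library, between -0.04 and 0.27 in the other cisplatin libraries, between -0.19 and 0.28 among controls and between -0.36 and -0.01 after cisplatin plus STB. The fold changes of the members are therefore given with and without this library.

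**Figure D1:**
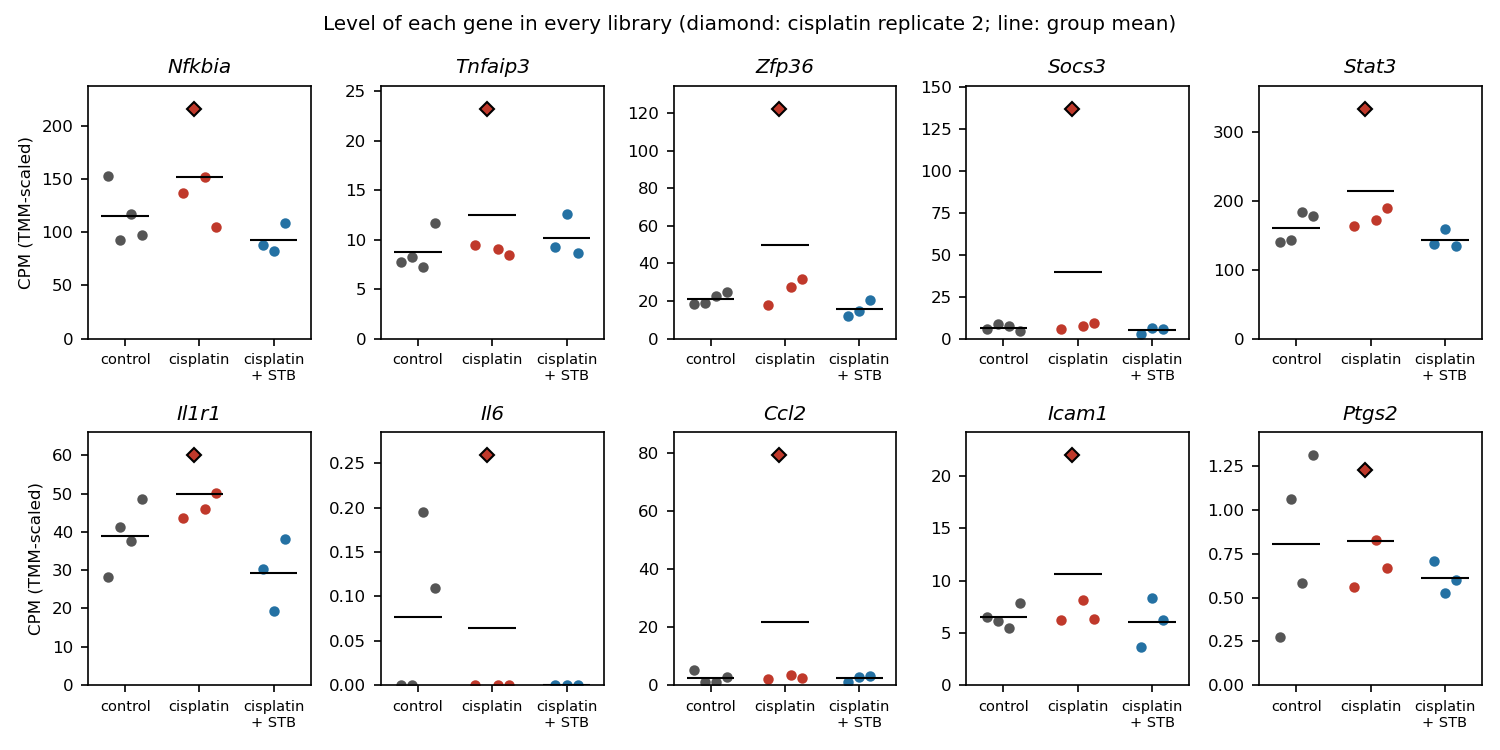
Level of each of the 10 genes (CPM, TMM-scaled, linear axis from 0) in every library of the control, cisplatin and cisplatin plus STB groups. Points are libraries, lines are group means and the diamond is cisplatin replicate 2, which is the highest point for every gene except Ptgs2.

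Some other measures moved with that library and some did not. Immediate early genes (25 of 26 listed genes in the table, such as Fos and Egr1) summed to 4747 CPM there and to 1147 to 2181 CPM in the other 10 libraries. Of the 25, 17 were at least 2-fold above every other library, as were 1.18% of all tested genes. Glucocorticoid-responsive genes (16 of 19) summed to 6493 CPM there and to 1883 to 5157 CPM elsewhere. Macrophage markers (14 of 16) summed to 112 to 126 CPM in control, 75.9 to 155 CPM in the other 3 cisplatin libraries, 204 CPM in cisplatin replicate 2 and 78.4 to 156 CPM after cisplatin plus STB, with Mpeg1 at 0 in 9 libraries and Adgre1 in 7. Neutrophil markers (7 of 12) were low throughout, at 12.3 CPM in that library and 4.94 to 14.3 CPM in the others. Endothelial markers (12 of 12) stood at 657 CPM there against 651 to 923 CPM, and fibroblast markers (10 of 10) at 1293 against 1110 to 1372 CPM. Hair cell markers (10 of 10) summed to 2434 CPM there and to 673 to 2327 CPM elsewhere, muscle markers (11 of 12) to 42.2 CPM against 18.6 to 37.4 CPM, and neuron markers (12 of 12) to 510 CPM against 354 to 3733 CPM. Ocm alone made up 1912 CPM of that hair cell sum, and Mb 30.5 CPM of that muscle sum. In that library 1 of 8 tested hair cell markers and 1 of 9 tested muscle markers lay above every other library, as did 18.8% of all tested genes. Leaving that library aside, glucocorticoid-responsive genes summed to 3938 to 5157 CPM in the other 3 cisplatin libraries, 2753 to 3559 CPM in control and 1883 to 3504 CPM after cisplatin plus STB, and immediate early genes to 1636 to 2181, 1163 to 1738 and 1147 to 1312 CPM. The part of these differences in the results below was not tested.

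Levels can be compared between genes only per length, which the authors' FPKM (a level scaled by exonic length and library size) gives. In the 4 controls Nfkbia had the highest level, 72.7 ± 17.5 FPKM (SD, n = 4), followed by Stat3 at 43.7 ± 5.98 FPKM, Zfp36 at 12.7 ± 1.74 FPKM and Il1r1 at 5.43 ± 1.13 FPKM. The libraries of these 4 genes did not overlap one another. Ccl2 (3.89 ± 2.98 FPKM), Icam1 (2.73 ± 0.37 FPKM), Socs3 (2.57 ± 0.82 FPKM) and Tnfaip3 (2.21 ± 0.46 FPKM) came next, and neighbours from Il1r1 to Tnfaip3 overlapped. Ptgs2 lay below all of them at 0.30 ± 0.17 FPKM. Untreated cochleae thus held the transcripts of the inhibitor Nfkbia and of Stat3 at higher levels per length than those of the chemokine, adhesion and cyclooxygenase genes.

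Cisplatin-treated cochleae were first compared with untreated ones, which asks whether the drug moved this circuit. None of the 9 tested members was called by edgeR, and 0 of 15384 genes were (0%). At an unadjusted p under 0.05, edgeR gave 3 members, all with positive fold changes (4.43% of all tested genes), and 0 with negative ones (5.28%). All 9 fold changes were above 0, against 49.1% of all tested genes, and their median was 0.52 against -0.01 over all genes. When cisplatin replicate 2 was left out, the median was 0.13, 8 of 9 were above 0 (48.4% of all genes), 0 members had an unadjusted p under 0.05 (3.49% of genes with positive and 4.52% with negative fold changes) and 0 were called (0%). The count of 3 became 0 without control replicate 3, 1 without control replicate 2, control replicate 4, or replicate 2 or 3 of cisplatin plus STB, and 5 without cisplatin replicate 1 or 4. It was 0 in the fit of only these groups and by limma-voom. By DESeq2 it was 1 (Zfp36), but DESeq2 gave no p for Socs3 and Ccl2, which were among the 3 by edgeR. In no member did the 4 cisplatin libraries lie apart from the 4 controls (2.8% of all tested genes higher and 3.26% lower without overlap), nor did the other 3 (4.41% and 5.09%).

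Cochleae given cisplatin plus STB were next set against those given cisplatin only. This comparison shares the 4 cisplatin libraries with the first, so a library that is high in that group moves both comparisons, in opposite directions. No member was called by edgeR, against 3 of 15384 genes (0.0195%). At an unadjusted p under 0.05, 5 of the 9 members had negative fold changes (4.58% of all tested genes) and 0 had positive ones (4.45%). All 9 fold changes were below 0 (49.2% of all genes), with a median of -0.77 against 0.00 over all genes. When cisplatin replicate 2 was left out, the median was -0.30, 8 of 9 were below 0 (49.1%), 3 members (Zfp36, Il1r1 and Nfkbia) had an unadjusted p under 0.05 (4.53% of genes with negative and 3.54% with positive fold changes) and 0 were called (0.013%). The count of 5 became 2 without replicate 1 and 3 without replicate 2 or replicate 3 of cisplatin plus STB, and 3 in the fit of only these groups. It became 7 without cisplatin replicate 1 or 4 and 6 without cisplatin replicate 3. By limma-voom it was 5, and by DESeq2, which gave no p for Socs3 and Ccl2, it was 4. For Il1r1 and Stat3 every library of the combined group lay below every cisplatin library, which held for 3.73% of all tested genes in this direction and 3.81% in the other. The same 2 members lay apart without cisplatin replicate 2 (6.15% and 5.46%).

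Against untreated cochleae, those given cisplatin plus STB had no member called by edgeR and no gene called (0%). No member had an unadjusted p under 0.05 (0.397% of all tested genes with positive and 0.676% with negative fold changes). The fold changes of 8 of 9 members were below 0 (50.9% of all genes), with a median of -0.31, and all 9 overlapped between the groups (1.02% of all genes higher and 1.39% lower without overlap). Cisplatin replicate 2 belongs to neither group, so leaving it out could act only through the shared gene filter, scaling and spread. Without it in the fit, 8 of 9 were below 0 (53.2%) and 0 were called (0%). No member had an unadjusted p under 0.05 (0.398% and 0.939%) and all 9 overlapped (0.899% and 1.54%). The members in this comparison ran from -0.44 (Zfp36) to 0.22 (Tnfaip3).

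**Figure D2:**
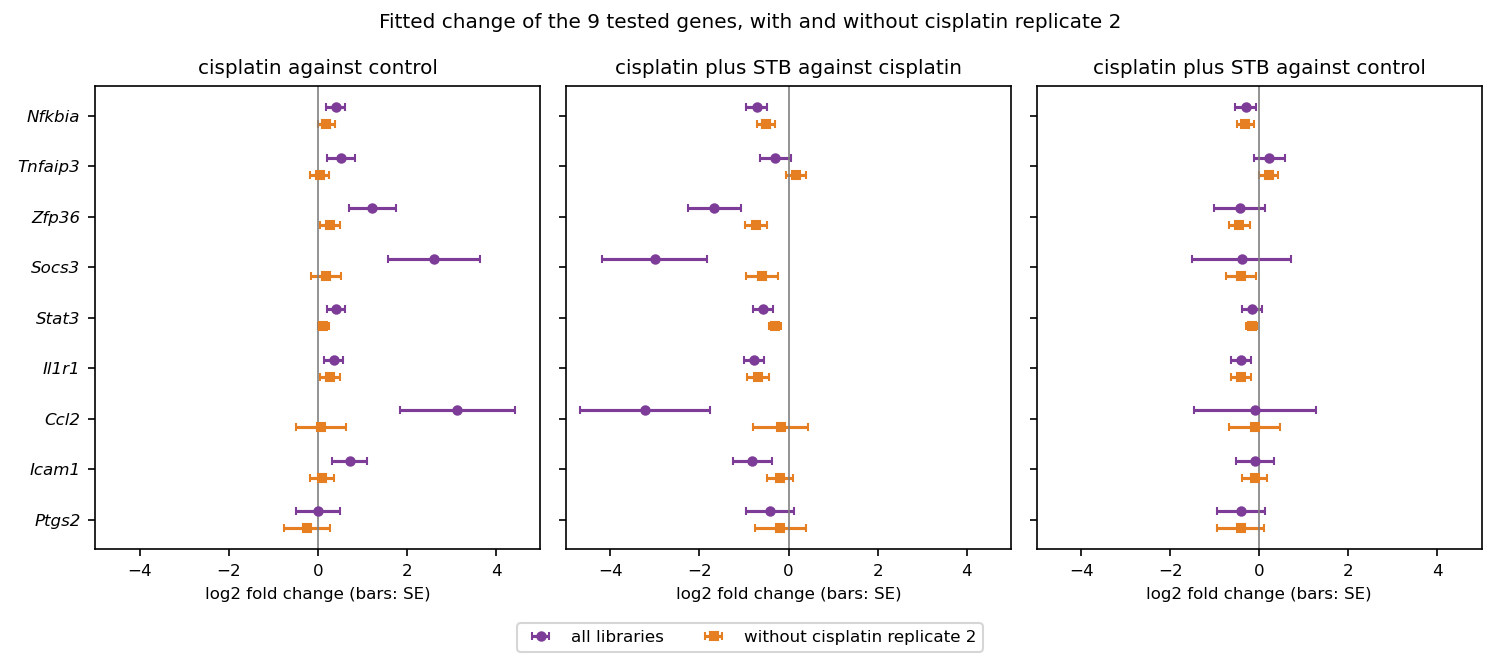
Fitted log2 fold change (x axis, bars are SE) of the 9 tested genes in the 3 comparisons, from all 11 libraries (circles) and without cisplatin replicate 2 (squares). Socs3 moves from 2.61 to 0.19 and Ccl2 from 3.13 to 0.07 for cisplatin against control, while Il1r1 moves only from -0.77 to -0.69 for cisplatin plus STB against cisplatin.

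The inhibitors come first. Nfkbia encodes IkB-alpha, the protein that holds NF-kB in the cytoplasm and that NF-kB itself induces (positions 31600832 to 31604233, minus strand of its scaffold). It was at 153, 92.9, 117 and 97.2 CPM in control replicates 1 to 4, at 137, 216, 152 and 104 CPM in cisplatin replicates 1 to 4 and at 87.6, 82.8 and 109 CPM in replicates 1 to 3 of cisplatin plus STB. The cisplatin libraries spanned those of both other groups in part, and the lowest cisplatin library lay between the combined libraries. Its fitted log2 difference was 0.41 (SE 0.22, adjusted p by edgeR = 0.558) for cisplatin against control and -0.71 (SE 0.24, adjusted p by edgeR = 0.423) for cisplatin plus STB against cisplatin. Without cisplatin replicate 2 these values were 0.20 (SE 0.19) and -0.51 (SE 0.21, adjusted p by edgeR = 0.590). Nfkbia thus kept most of its difference between the treated groups without that library.

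Tnfaip3 encodes A20, a ubiquitin-editing enzyme that shuts off the signal upstream of NF-kB (5409870 to 5424145, plus strand). It was at 7.78, 8.24, 7.22 and 11.6 CPM in the controls, at 9.49, 23.2, 9.02 and 8.42 CPM after cisplatin and at 9.24, 12.6 and 8.67 CPM after cisplatin plus STB. All libraries but cisplatin replicate 2 lay within the same narrow span. On the log2 scale the difference was 0.52 (SE 0.32, adjusted p by edgeR = 0.613) for cisplatin against control, or 0.05 (SE 0.22) without that library, and for cisplatin plus STB against cisplatin it was -0.30 (SE 0.35, adjusted p by edgeR = 0.846), or 0.17 (SE 0.23) without it. Tnfaip3 is the member whose direction between the treated groups turned when that library was left out.

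Zfp36 encodes tristetraprolin, which binds AU-rich elements and speeds the decay of cytokine mRNAs (17792486 to 17794835, plus strand). It was at 18.2, 19.0, 22.6 and 25.03 CPM in the controls, at 17.8, 122, 27.7 and 31.5 CPM after cisplatin and at 12.1, 14.4 and 20.5 CPM after cisplatin plus STB. Cisplatin replicate 2 was 3.88-fold above the next library, and 1 of the other 3 cisplatin libraries lay inside the range of the combined group. The log2 fold change was 1.23 (SE 0.53, adjusted p by edgeR = 0.512) for cisplatin against control and 0.28 (SE 0.23) without that library. For cisplatin plus STB against cisplatin it was -1.67 (SE 0.59, adjusted p by edgeR = 0.454), and without that library -0.73 (SE 0.25, unadjusted p = 0.0132 and adjusted p = 0.540 by edgeR).

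Socs3 encodes the inhibitor that STAT3 induces and that blocks the receptors of the interleukin-6 family (27197185 to 27200281, minus strand). It was at 5.44, 8.74, 7.54 and 4.32 CPM in the controls, at 5.56, 137, 7.42 and 9.15 CPM after cisplatin and at 2.84, 6.24 and 5.72 CPM after cisplatin plus STB. A single library carried the difference, at 14.97-fold the next highest library and 18.6-fold the mean of the other 3 cisplatin libraries. A log2 difference of 2.61 (SE 1.04, adjusted p by edgeR = 0.491) for cisplatin against control became 0.19 (SE 0.33) without it, and that of -3.0 (SE 1.18, adjusted p by edgeR = 0.518) for cisplatin plus STB against cisplatin became -0.59 (SE 0.36).

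Stat3 encodes the transcription factor downstream of those receptors (94274262 to 94303261, minus strand). It was at 140, 143, 184 and 177 CPM in the controls, at 163, 333, 172 and 190 CPM after cisplatin and at 137, 158 and 135 CPM after cisplatin plus STB. All 4 cisplatin libraries lay above the 3 combined libraries, the nearest pair being 163 and 158 CPM, while the controls overlapped both groups. On the log2 scale the difference for cisplatin plus STB against cisplatin was -0.58 (SE 0.23, adjusted p by edgeR = 0.494), and -0.30 (SE 0.14, adjusted p by edgeR = 0.628) without cisplatin replicate 2. For cisplatin against control it was 0.41 (SE 0.21, adjusted p by edgeR = 0.535), and 0.13 (SE 0.13) without that library. Stat3 varied little among the other 10 libraries.

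Il1r1 encodes the signalling receptor of interleukin-1 (49406321 to 49473738, minus strand). It was at 28.2, 41.2, 37.6 and 48.5 CPM in the controls, at 43.7, 60.0, 45.9 and 50.2 CPM after cisplatin and at 30.2, 19.3 and 38.2 CPM after cisplatin plus STB. The treated groups did not overlap, and here the highest cisplatin library was only 1.19-fold above the next. The log2 fold change for cisplatin plus STB against cisplatin was -0.77 (SE 0.23, unadjusted p = 0.00568 and adjusted p = 0.388 by edgeR), the smallest p among the members, and -0.69 (SE 0.24, adjusted p by edgeR = 0.543) without cisplatin replicate 2. For cisplatin against control it was 0.36 (SE 0.21, adjusted p by edgeR = 0.593), or 0.27 (SE 0.22) without that library, and against control the combined group stood at -0.41 (SE 0.23). Of the members, Il1r1 was the one whose difference between the treated groups depended least on that library.

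Among the targets, Ccl2 encodes the chemokine that attracts monocytes (68943426 to 68945206, minus strand, the same scaffold as Stat3). It was at 5.03, 1.06, 0.98 and 2.90 CPM in the controls, at 1.94, 79.3, 3.62 and 2.26 CPM after cisplatin and at 1.16, 2.80 and 3.01 CPM after cisplatin plus STB. Cisplatin replicate 2 was 15.8-fold above the next library, and the other 10 libraries overlapped across the groups. Its fitted log2 difference was 3.13 (SE 1.29, adjusted p by edgeR = 0.508) for cisplatin against control and -3.22 (SE 1.45, adjusted p by edgeR = 0.563) for cisplatin plus STB against cisplatin. Without that library the values were 0.07 (SE 0.57) and -0.18 (SE 0.61). Whether reads of close chemokine paralogues were counted to Ccl2 could not be checked from the counts.

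Icam1 encodes an adhesion molecule that binds leukocyte integrins (70068222 to 70076502, plus strand). It was at 6.54, 6.12, 5.46 and 7.81 CPM in the controls, at 6.24, 22.0, 8.13 and 6.28 CPM after cisplatin and at 3.68, 8.30 and 6.20 CPM after cisplatin plus STB. It followed the pattern of Tnfaip3, with a single high library and all others overlapping. On the log2 scale the difference was 0.72 (SE 0.40, adjusted p by edgeR = 0.575) for cisplatin against control, or 0.09 (SE 0.27) without that library, and -0.81 (SE 0.44, adjusted p by edgeR = 0.633) for cisplatin plus STB against cisplatin, or -0.20 (SE 0.29).

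Ptgs2 encodes the inducible cyclooxygenase, COX-2 (36009821 to 36016746, plus strand), and rested on only 4 to 24 counts in a library. It was at 0.28 to 1.31 CPM in the controls, at 0.56 to 1.23 CPM after cisplatin and at 0.53 to 0.71 CPM after cisplatin plus STB. It is the tested member in which cisplatin replicate 2 was not the highest library, control replicate 4 being higher. The log2 fold change was 0.01 (SE 0.49, adjusted p by edgeR = 0.996) for cisplatin against control and -0.42 (SE 0.53, adjusted p by edgeR = 0.860) for cisplatin plus STB against cisplatin, or -0.24 (SE 0.52) and -0.18 (SE 0.56) without cisplatin replicate 2, so no difference was detectable at this depth.

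Il6 encodes the cytokine that acts through STAT3 (25553640 to 25558168, plus strand), and had too few counts to be tested. It had 0, 0, 3 and 2 counts in the controls, 0, 4, 0 and 0 counts after cisplatin and 0 counts in each of the 3 libraries of cisplatin plus STB. A count of 0 allows up to 3 counts, which is 0.159 to 0.207 CPM by library and covers counting error only. The cytokine transcript was therefore at or near the floor in every library, with its highest count, 4, in cisplatin replicate 2.

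None of the 10 genes overlaps another gene of the table, and their positions are identical to those of the RefSeq assembly mCavPor4.1.

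**Figure D3:**
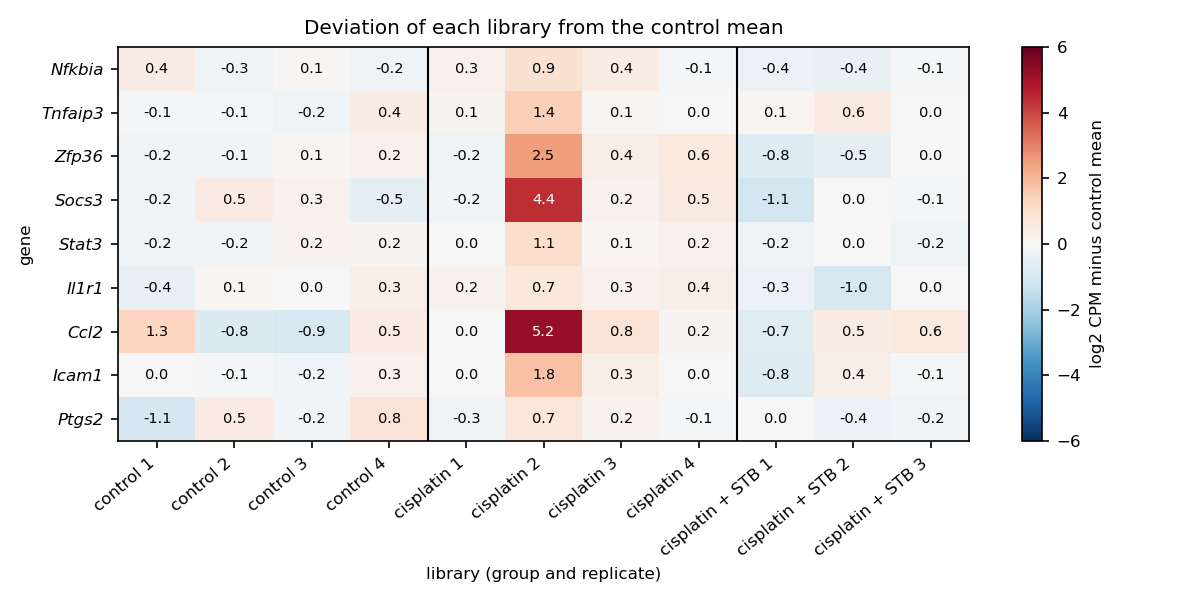
Difference between log2 CPM in each library (columns) and the mean of the 4 controls, for the 9 tested genes (rows). Cisplatin replicate 2 is above the control mean in all 9 rows, and Zfp36, Socs3, Nfkbia and Stat3 are below it in the 3 libraries of cisplatin plus STB.

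The members were ranked among all tested genes by their excess in cisplatin replicate 2. By the ratio of this library to the highest of the other 10, Ccl2 ranked 6 and Socs3 ranked 7 among 15384 genes, Zfp36 ranked 57 and Icam1 ranked 94. Tnfaip3 ranked 222, Stat3 259, Nfkbia 512, Il1r1 1082 and Ptgs2 3859. The ranks describe this library and carry no test.

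**Figure D4:**
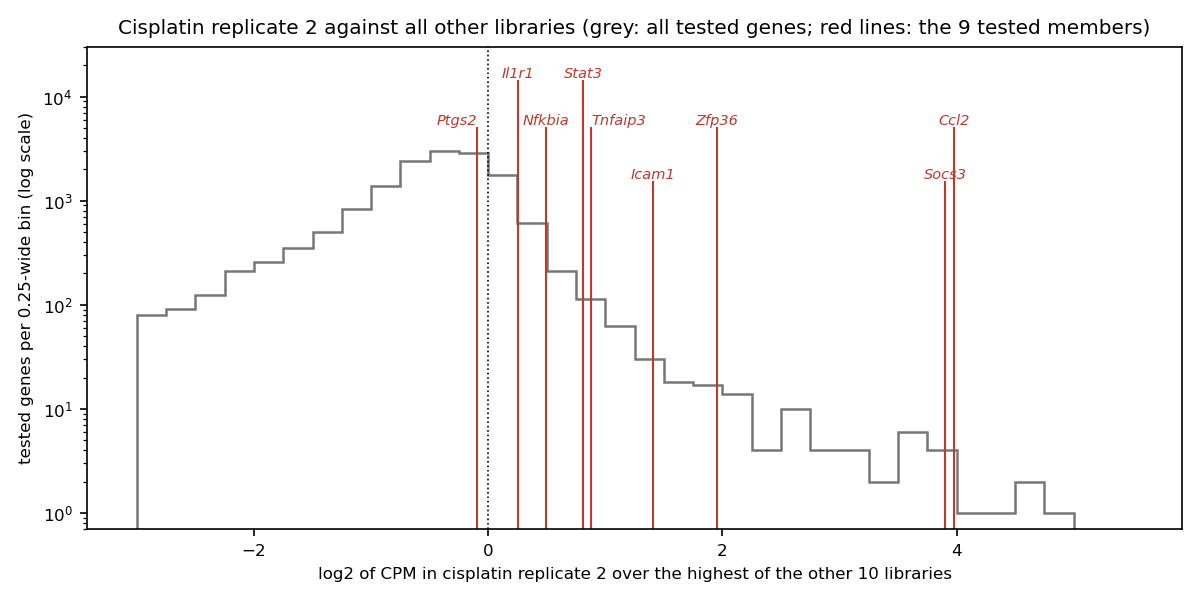
Number of tested genes (log axis) by the log2 ratio of CPM in cisplatin replicate 2 to the highest of the other 10 libraries. Red lines mark the 9 tested members, of which Socs3 (14.97-fold) and Ccl2 (15.8-fold) lie at the far right and Ptgs2 (0.94-fold) lies just left of 0.

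The rest of the NF-kB machinery was described from a list of 42 genes of receptors, adaptors, kinases, NF-kB subunits and inhibitors, all of them tested. None was called by edgeR in any of the 3 comparisons. For cisplatin against control their median log2 fold change was 0.15, with 32 above 0 (49.1% of all tested genes), and 1 higher (4.43% of all) and 0 lower (5.28%) at an unadjusted p under 0.05. For cisplatin plus STB against cisplatin it was -0.15, with 33 below 0 (49.2% of all), and 0 higher (4.45%) and 5 lower (4.58%). The same medians without cisplatin replicate 2 were 0.02 and -0.11, and the counts for the treated groups were 2 higher (3.54% of all) and 1 lower (4.53%). The 3 with the smallest p between the treated groups were Tnip2, which binds A20, at -0.59 (SE 0.23), Nfkbiz, a nuclear IkB protein, at -0.61 (SE 0.24), and Tnfrsf1b, a TNF receptor, at -0.94 (SE 0.41), and without that library they stood at -0.64 (SE 0.25), -0.40 (SE 0.20) and -0.34 (SE 0.25). In that library Relb, Nfkbie, Bcl3, Birc3, Tnfrsf1a and Tnfrsf1b were at least 2-fold above every other library, as were 1.18% of all tested genes.

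Of 34 other NF-kB target genes, 30 were in the table and 20 were tested, and none was called by edgeR. Their median was 0.40 for cisplatin against control and -0.49 for cisplatin plus STB against cisplatin, or 0.06 and -0.20 without cisplatin replicate 2. At an unadjusted p under 0.05, 3 were higher (4.43% of all tested genes) and 0 lower (5.28%) in the first comparison, and 1 was higher (4.45%) and 4 lower (4.58%) in the second. Leaving out cisplatin replicate 2 made these counts 1 higher (3.49%) and 1 lower (4.52%), and 1 higher (3.54%) and 0 lower (4.53%), so the 4 lower targets were not kept. Sod2, the mitochondrial superoxide dismutase, went the other way from most of the list between the treated groups, at 0.37 (SE 0.12, adjusted p by edgeR = 0.407), and 0.34 (SE 0.13) without that library. Ptges, a prostaglandin E synthase, stood at -0.48 (SE 0.19), or -0.33 (SE 0.16) without it.

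Of 42 genes around the interleukin-6 receptor family and STAT3, 32 were tested and none was called by edgeR, with medians of 0.13 and -0.16 in these comparisons, or 0.0049 and -0.11 without cisplatin replicate 2. At an unadjusted p under 0.05, 5 were higher (4.43% of all tested genes) and 1 lower (5.28%) for cisplatin against control, or 2 (3.49%) and 2 (4.52%) of 31 without that library. Between the treated groups 1 was higher (4.45%) and 9 were lower (4.58%), or 1 (3.54%) and 7 (4.53%) of 31 without it. Osmr, the oncostatin M receptor, had the smallest p. It was at 51.4, 46.2, 48.2 and 49.6 CPM in the controls, at 58.2, 145, 93.4 and 98.7 CPM after cisplatin and at 26.6, 30.3 and 54.6 CPM after cisplatin plus STB. All 4 cisplatin libraries lay above all controls (2.8% of all tested genes) and above all combined libraries (3.73%). Osmr was named for its small p between the treated groups, so the gap there is partly built in by that choice. Its fitted log2 difference was 1.02 (SE 0.26, adjusted p by edgeR = 0.440) for cisplatin against control and -1.41 (SE 0.29, adjusted p by edgeR = 0.258) for cisplatin plus STB against cisplatin, and without cisplatin replicate 2 it was 0.78 (SE 0.24, adjusted p by edgeR = 0.598) and -1.18 (SE 0.27, adjusted p by edgeR = 0.411). Pim3, a serine/threonine kinase, stood at -0.78 (SE 0.20) between the treated groups, and Socs7, a relative of Socs3, at 0.36 (SE 0.11), or -0.60 (SE 0.16) and 0.33 (SE 0.12) without that library.

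Of 21 genes of the interleukin-1 receptor pathway, 13 were tested beside Il1r1, none was called by edgeR, and 0 were higher (4.45% of all tested genes) and 1 lower (4.58%) at an unadjusted p under 0.05 between the treated groups (median -0.15), with the same counts without cisplatin replicate 2 (3.54% and 4.53%). That gene was Il1r2, the decoy receptor that binds interleukin-1 without signalling. It was at 49.1, 53.0, 41.4 and 40.7 CPM in the controls, at 65.7, 67.2, 127 and 94.2 CPM after cisplatin and at 14.6, 22.5 and 64.9 CPM after cisplatin plus STB. The cisplatin libraries again lay above the controls (2.8% of all tested genes) and above the combined libraries (3.73%), for a gene named by the same choice. The highest combined library, at 64.9 CPM, came close to the lowest cisplatin library, and cisplatin replicate 2 was not the highest. On the log2 scale the difference was 0.94 (SE 0.40, adjusted p by edgeR = 0.508) for cisplatin against control and -1.38 (SE 0.44, adjusted p by edgeR = 0.420) for cisplatin plus STB against cisplatin. Without cisplatin replicate 2 these values were 1.06 (SE 0.44) and -1.51 (SE 0.49). The co-receptor gene Il1rap stood at -0.56 (SE 0.26) and the adaptor gene Myd88 at -0.34 (SE 0.17) in the second comparison, or -0.56 (SE 0.29) and -0.22 (SE 0.15) without that library.

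Of 27 genes of AU-rich element decay beside Zfp36, all were tested and none was called by edgeR, with a median of 0.14 for cisplatin against control and -0.16 between the treated groups, where 0 were higher (4.45% of all tested genes) and 4 lower (4.58%) at an unadjusted p under 0.05. Leaving out cisplatin replicate 2 made this 0 higher (3.54%) and 7 lower (4.53%). Dusp1, the phosphatase that inactivates the p38 kinase upstream of tristetraprolin, was at 44.3, 38.0, 27.0 and 29.8 CPM in the controls, at 46.6, 85.6, 58.5 and 57.5 CPM after cisplatin and at 38.5, 27.9 and 39.99 CPM after cisplatin plus STB. Its cisplatin libraries lay above the controls (2.8% of all tested genes) and above the combined libraries (3.73%), and it too was named for its small p between the treated groups. The log2 fold change between these groups was -0.81 (SE 0.23, adjusted p by edgeR = 0.369), or -0.63 (SE 0.21) without cisplatin replicate 2. Zc3h12a, the endonuclease Regnase-1 that cuts cytokine mRNAs, stood at -1.43 (SE 0.48), or -0.71 (SE 0.29) without that library, and Tob2, a partner of the deadenylase complex, at -0.31 (SE 0.13), or -0.32 (SE 0.15).

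Of 23 prostaglandin, chemokine and adhesion genes beside Ptgs2, Ccl2 and Icam1, 17 were tested and none was called by edgeR (medians 0.02 and -0.05, or 0.06 and -0.13 without cisplatin replicate 2). At an unadjusted p under 0.05 between the treated groups, 1 was higher (4.45% of all tested genes) and 0 lower (4.58%), or 1 (3.54%) and 1 (4.53%) without that library. Pla2g4a, the phospholipase that releases arachidonic acid, stood at 1.18 (SE 0.39), Ptger4, a prostaglandin E receptor, at -1.04 (SE 0.52) and Ptgds, prostaglandin D synthase, at -0.51 (SE 0.27) for cisplatin plus STB against cisplatin. Without that library these values were 0.98 (SE 0.40), -0.99 (SE 0.56) and -0.38 (SE 0.28).

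The cytokines that can start these circuits were examined in each library, and they were picked from the lists after their values were seen. Lif, an interleukin-6 family cytokine that signals through STAT3, was at 0.55, 0, 0.72 and 0.11 CPM in the controls, at 0.19, 54.5, 0.24 and 1.95 CPM after cisplatin and at 0, 0.21 and 0.54 CPM after cisplatin plus STB. Tnf had 41 counts in cisplatin replicate 2 and 0 to 4 counts in each of the other 10 libraries, and was too low to be tested. Cxcl2, a neutrophil chemokine, was at 50.1 CPM in that library and at 0.26 to 3.87 CPM in the others. These 3 ligand genes were high in the same library as Socs3 and Ccl2. Il1b was not, at 0.84 CPM there and 0.060 to 1.37 CPM elsewhere, and Osm had 0 counts there and 0 to 4 counts elsewhere. Il11 stood at 4.85 CPM in that library and between 2.19 and 4.91 CPM in the others. Of 2 further genes that cytokines induce, Cebpd, a C/EBP transcription factor, was at 101.4 CPM there and 4.98 to 14.2 CPM elsewhere, and Timp1, a metalloproteinase inhibitor, at 233 CPM there and 34.6 to 54.6 CPM elsewhere.

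**Figure D5:**
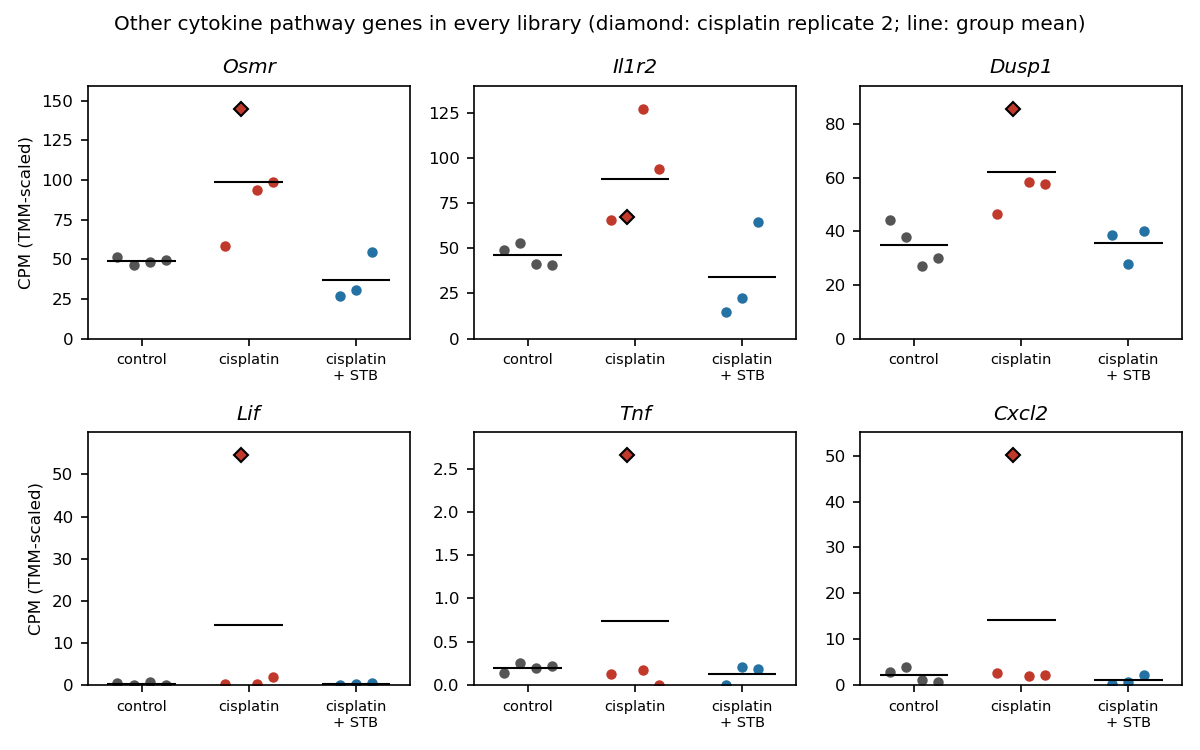
Level of 6 related genes (CPM, TMM-scaled, linear axis from 0) in every library, with group means as lines and cisplatin replicate 2 as a diamond. Osmr, Il1r2 and Dusp1, named for their small p between the treated groups, are higher in all 4 cisplatin libraries than in the other groups. Of all tested genes, 2.8% lie above all controls in this way and 3.73% above all combined libraries. Lif, Tnf and Cxcl2 are highest in cisplatin replicate 2.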

How the data were processed

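Column-purified RNA, selected with oligo(dT) or depleted of ribosomal RNA, went into strand-keeping paired-end libraries, per the labels' protocols. Tools named in the submitters' processing notes are HTSeq 0.6.1, HISAT2 2.2.1 and cutadapt 1.9.1. Neither the genome build nor the use of strand in counting is given in the sources used here. Counts and FPKM stand side by side for every gene, per the file headers of the deposited table, with the exonic length. FPKM, made by the authors, entered no test.

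The counts were tested with edgeR 4.0.16 in R 4.3.3 (filterByExpr, TMM, robust quasi-likelihood fit of all 11 libraries by group), which kept 15384 of 21481 genes. The test was checked on simulated counts, which held no outlying library and so say nothing on a library such as cisplatin replicate 2. Log2 CPM uses a prior count of 2. Genes named from the lists are the 3 with the smallest p between the treated groups, or those called; 1 gene that this rule names is not reported here. DESeq2 1.42.0 and limma 3.58.1 gave alternatives. Members and lists were chosen with earlier results of these data known. Libraries of a group correlated at 0.943 to 0.975 (Pearson r over tested genes).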

Additional observations from a re-analysis of the deposited data

Results flagged for a closer look

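In groups of 4 libraries a value was set apart when its gap to the nearest library exceeded 0.829 of the group's range (Dixon's 95% critical value), which chance alone gives for about 1 in 20 groups. Cisplatin replicate 2 was set apart as a high value in this way for 2.72% of all tested genes, control replicate 2 for 2.41% and control replicate 4 for 2.07%. The 1 in 20 covers any library of a group at either end. Counted over any cisplatin library, 6.01% of genes had a high value set apart and 1.62% a low one. The members were chosen with earlier results of these data known, and several of the related genes after their values in cisplatin replicate 2 were seen, so their number is not to be read against chance.

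Among the members, cisplatin replicate 2 lay far above the other cisplatin libraries for Tnfaip3 (23.2 CPM, next highest 9.49 CPM), Zfp36 (122 CPM, next 31.5 CPM), Socs3 (137 CPM, next 9.15 CPM), Stat3 (333 CPM, next 190 CPM), Ccl2 (79.3 CPM, next 3.62 CPM) and Icam1 (22.0 CPM, next 8.13 CPM). Il6 did so at 0.259 CPM with the other 3 at 0, which is 4 counts and near the floor. Nfkbia, Il1r1 and Ptgs2 did not meet it in that group.

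Among the related genes, whose choice already rested on this library, the values were high for Lif (54.5 CPM, next 1.95 CPM), Cxcl2 (50.1 CPM, next 2.62 CPM), Cebpd (101.4 CPM, next 14.2 CPM), Timp1 (233 CPM, next 54.1 CPM) and Tnf (2.65 CPM, next 0.178 CPM).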

How the results depend on the processing

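No member was called in any comparison under any of the 18 alternatives. DESeq2 gave no p for Socs3 and Ccl2, and its smallest member adjusted p was 0.107 (Il1r1 between the treated groups), against 0.0612 for Il1r1 by limma-voom with quality weights. Genes called for cisplatin against control numbered 33 by DESeq2, 3 by limma-voom and 1 without the low-count filter, and 0 to 7 when a library was left out (7 without cisplatin replicate 1). For cisplatin plus STB against cisplatin they numbered 100 by DESeq2, 215 by limma-voom and 0 in the fit of only the groups compared, against 3 in the fit as reported, and 0 to 23 when a library was left out (23 without replicate 3 of cisplatin plus STB, 15 without cisplatin replicate 1, 0 without cisplatin replicate 3 or 4 or replicate 1 of cisplatin plus STB, and 1 without control replicate 1, 3 or 4 or replicate 2 of cisplatin plus STB). For cisplatin plus STB against control they numbered 0 to 2 when a library was left out. The median of the members ran from 0.13 to 0.69, from -0.87 to -0.30 and from -0.40 to -0.12 in the 3 comparisons when a library was left out, the low end of the first and the high end of the second (-0.30) without cisplatin replicate 2.

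Directions turned for 4 members, none of them called. Ptgs2 for cisplatin against control was -0.0085 with upper-quartile factors and ran from -0.26 to 0.35 when a library was left out, and against control the combined group stood at 0.0147 by limma-voom. Tnfaip3 ran from -0.48 to 0.17 for cisplatin plus STB against cisplatin. For the combined group against control Ccl2 ran from -0.35 to 0.48 and Icam1 from -0.39 to 0.16. With the replicate number as a block 0 genes were called for cisplatin plus STB against cisplatin, and the members at an unadjusted p under 0.05 went from 3 to 0 for cisplatin against control and from 5 to 3 for cisplatin plus STB against cisplatin. Same-numbered libraries of different groups deviated together with r from -0.31 to 0.36, and different-numbered ones with r from -0.48 to 0.55. Whether the numbers mark a shared animal, day or batch cannot be told from these values, and the labels do not say. Depth limits Il6 and Ptgs2.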

Other observations

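The members were compared with each other by Spearman's rho of log2 CPM over the libraries, which share their scaling and depth. Over 11 libraries 33 of 36 pairs of tested members had a rho above 0, with a median of 0.35, and over the 10 libraries without cisplatin replicate 2 this was 27 of 36 with a median of 0.15. Zfp36 and Il1r1 had the highest rho (0.83 and 0.77), followed by Ccl2 and Icam1 (0.77 and 0.70). These values pool the groups. With the group means taken out, Zfp36 and Il1r1 were at 0.58 and 0.60, and the highest pairs were Ccl2 and Icam1 over 11 libraries (0.81) and Il1r1 and Ptgs2 over 10 (0.72).

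Among genes outside the members with a symbol other than a LOC symbol, those most like the members' mean over 11 libraries were Lgals8, a galectin (0.95), Arg1, arginase 1 (0.94), Orc2, a subunit of the origin recognition complex (0.93), Tifa, a TRAF-interacting adaptor (0.93), and Bche, butyrylcholinesterase (0.92). Without cisplatin replicate 2 they were Glyr1 (0.98), Dhtkd1 (0.96), Pcdh18 (0.94), Bche (0.93) and Cert1 (0.93), with Bche alone in both sets.

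Of 12 tested macrophage markers, 4 were highest in cisplatin replicate 2, as were 18.8% of all tested genes. The 4 markers were the complement genes C1qa (42.9 CPM), C1qb (30.3 CPM) and C1qc (18.8 CPM) and Cd14, a co-receptor for bacterial lipopolysaccharide (13.1 CPM). C1qb and Cd14 were at least 2-fold above every other library, which held for 1.18% of all tested genes. Cd163 stood at 11.7 CPM there, close to its highest value of 11.8 CPM, while the mannose receptor gene Mrc1 stood at 5.37 CPM with a highest value of 14.3 CPM and the pan-leukocyte gene Ptprc at 4.85 CPM with a highest value of 10.5 CPM.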
